A study of Rattus norvegicus with 36 samples.

Results

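Alveolar macrophages given Printex90 at the loading labelled overload were compared with those given it at the loading labelled non-overload. The comparison was defined by the labels alone and rests on 6 libraries of the 36 in the series, 3 in each group, described across all 14498 genes that could be tested. The cells were primary alveolar macrophages of male F344/HanZtmRj rats. All groups were kept 5 days in DMEM medium with 10% fetal bovine serum, an antibiotic and an antimycotic, and exposure lasted 4 days. The groups used are Printex90 overload, Printex90 non-overload and the Printex90 control cultures, and for differences between particles the overload and non-overload groups of the titanium dioxides G1-1, G3-1 and Bayertitan (18 libraries). The mass of particles behind the names overload and non-overload is not given in the sources used here. The libraries are labelled biological replicates, but nothing ties them to separate animals, so the spread between libraries may be technical. In the main gene tests, the p-values measure that spread pooled over the 12 groups of the series. All 36 libraries entered that fit, the titanium dioxide controls among them.

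Alveolar macrophages engulf inhaled particles and hold them in lysosomes, acidic compartments filled with proteases and lipases. Particle overload is the state in which more material has been taken up than the cells can clear. Carbon black does not dissolve, and its surface can carry or bind organic molecules, among them ligands of the aryl hydrocarbon receptor, a transcription factor that switches on Cyp1 enzymes.

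The 6 libraries held 24013079 to 34752564 estimated counts each, with 2.01 to 2.97% of them on mitochondrially encoded genes. Expression values are CPM, counts scaled per library to a common total. The alveolar macrophage identity on the labels was checked with 18 marker genes present in the table, none of which was at 0 in all 9 Printex90 libraries. Of these, Marco (up to 0.244 CPM) and Ear1 (up to 0.117 CPM) were nearly absent from the 6 libraries, while Mrc1 was at 808 to 1065 CPM and Pparg at 42.99 to 76.2 CPM. Lyz2, a gene of myeloid cells in general, held 11445 to 16861 CPM of the sum. The summed level was 16582, 23376 and 18590.0 CPM in overload libraries 1, 2 and 3, against 15807, 16953 and 17388 CPM in non-overload libraries 1, 2 and 3. Libraries of both groups stood apart. Col3a1, a collagen of fibroblasts, was at 432 CPM in non-overload library 1 and at 0 in the other 5, and the summed level of 11 fibroblast markers was 177, 97.4 and 180.3 CPM in overload libraries, against 2079, 159 and 199.8 CPM in non-overload libraries. The 8 epithelial markers summed to 2768, 1539 and 2263 CPM in overload libraries, against 2511, 2990.3 and 2692 CPM in non-overload libraries, so that overload library 2 had the lowest epithelial and the highest macrophage level. The mean log2 level of the epithelial markers differed by -0.47 and that of the fibroblast markers by -1.69 (overload minus non-overload, two-sided exact permutation tests, p = 0.3 for each, n = 3 per group, where the smallest p possible is 0.1). In bulk RNA, fewer cells of a type and less RNA per cell cannot be told apart. The part of these other cells in the results below was not tested, and results are given with and without the libraries concerned.

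At the higher loading, 230 genes passed an adjusted p of 0.05 in edgeR's quasi-likelihood test, which is 1.59% of the genes tested. Of these, 183 were higher (1.26%) and 47 lower (0.324%) in overload. The rises were many and small, and the falls few and larger. The median log2 fold change was 0.35 among the higher genes and -0.60 among the lower genes, beside -0.02 over all genes tested. This balance did not hold in every fit. There were 3 higher and 8 lower genes without overload library 2, 9 and 10 without non-overload library 1, 34 and 16 without non-overload library 2, 3 and 10 without all libraries of the series that had Col3a1 above 5 CPM, 34 and 32 with the epithelial marker mean in the fit, and 92 and 43 with the fibroblast marker mean. Of the 183 rises, 161 were under 0.5 on the log2 scale. Only 1 gene rose and 12 fell by at least 2-fold. In 228 of the 230 the libraries of both groups did not overlap, where 23.8% of all genes tested had no overlap. The count depended on single libraries. It was 19 without non-overload library 1, 50 without non-overload library 2 and 11 without overload library 2, while it was 1078 without overload library 1. It was 0 in a fit of the 6 libraries alone, where 2010 genes had an unadjusted p under 0.05. The direction of the 230 genes was the same in each fit that gave them a value. The genes were picked in these same libraries, and most had no overlap between groups, so their direction could hardly change. The kept direction is therefore no separate support.

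**Figure D1:**
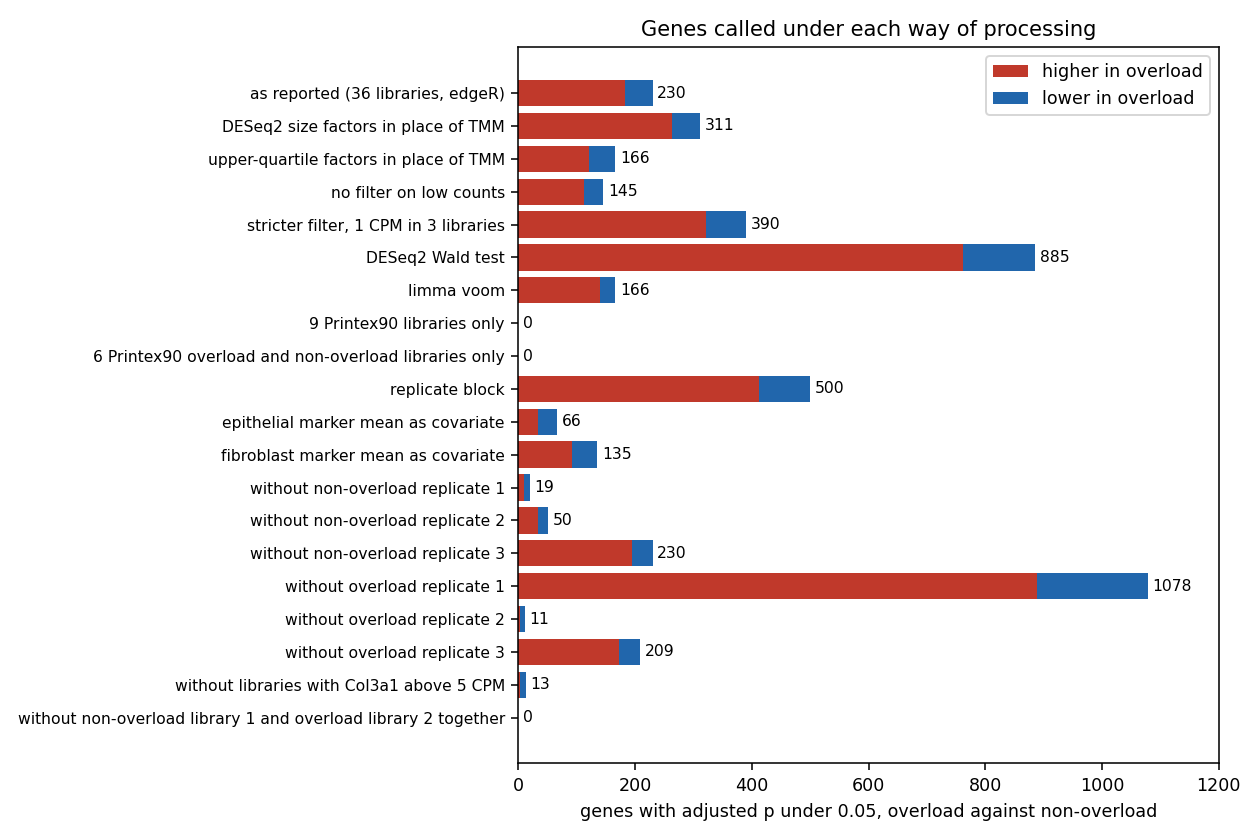
The number of genes with an adjusted p under 0.05 (x axis, bars from 0, red for higher and blue for lower in overload) under each way of processing (y axis). The bar is shortest at 0 for the fits of the Printex90 libraries alone and without non-overload library 1 and overload library 2 together, and longest at 1078 without overload library 1.

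**Figure D2:**
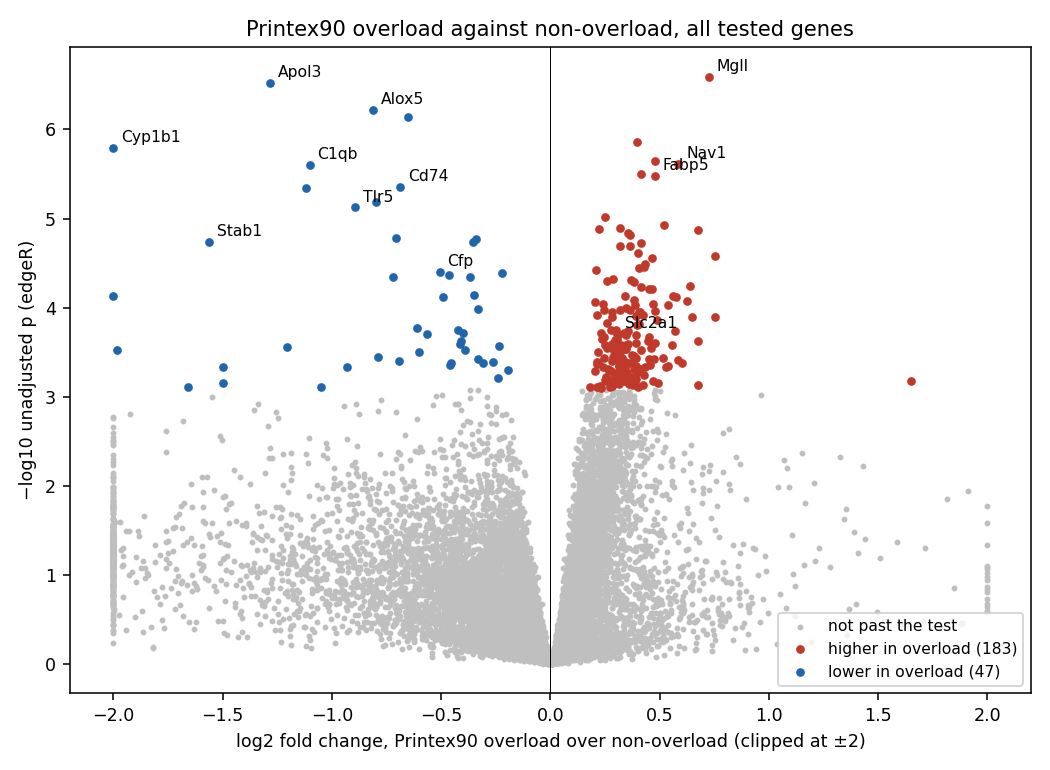
Each point is 1 of the 14498 genes tested, with the log2 fold change of Printex90 overload over non-overload on the x axis (clipped at -2 and 2) and the -log10 of the unadjusted edgeR p on the y axis. The 183 higher genes crowd at small positive values, while the 47 lower genes spread further to the left.

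In all, 9 genes passed also in each of the 6 fits that left out 1 of these libraries, and they were picked out after their values had been seen. Lower in overload were Cyp1b1, Cd74, RT1.Bb, Alox5, Apol3 and Lfng, and higher were Mgll, Tmem123 and Jcad. Without the libraries of the series with Col3a1 above 5 CPM, Alox5, Lfng, Mgll, Tmem123 and Jcad missed the threshold (adjusted p 0.0706 to 0.176), in limma voom Cyp1b1 did (adjusted p = 0.525), DESeq2 gave Alox5 and Apol3 no adjusted p, and none of the 9 passed in the fits of the Printex90 libraries alone. Apol3 belongs to the apolipoprotein L family. It was at 2.35, 1.29 and 2.10 CPM in overload libraries, against 5.13, 4.86 and 4.06 CPM in non-overload libraries (log2 fold change -1.28, SE 0.19, adjusted p = 0.00218 by edgeR). Lfng, a glycosyltransferase that modifies Notch receptors, was at 11.8, 14.00 and 13.5 CPM in overload libraries, against 19.6, 21.6 and 20.5 CPM in non-overload libraries (log2 fold change -0.65, SE 0.10, adjusted p = 0.00265). In both genes each overload library lay below each non-overload library. Tmem123, a membrane protein, was at 317, 334 and 327 CPM in overload libraries, against 234, 258 and 241 CPM in non-overload libraries (log2 fold change 0.42, SE 0.071, adjusted p = 0.00443). The overload libraries of this gene were close to one another and all above the others.

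Among the genes that passed, the largest change was in Cyp1b1, a cytochrome P450 enzyme switched on through the aryl hydrocarbon receptor. It was at 0.115, 0 and 0.0389 CPM in overload libraries 1, 2 and 3, against 85.2, 6.03 and 6.49 CPM in non-overload libraries 1, 2 and 3. The gene was close to 0 in all overload libraries, and non-overload library 1, the one with fibroblast transcripts, stood far above the others of its group. Over the groups there were 4 counts in overload and 2827 in non-overload, a ratio of non-overload over overload of 580 per library size with a 95% counting interval of 226 to 2130. Without non-overload library 1 there were 4 counts against 384, a ratio of 115 (44.7 to 426). These intervals cover counting error only. The fitted log2 fold change was -9.12 (SE 1.49, adjusted p = 0.00387), and it was -6.74 (adjusted p = 0.0449 by edgeR) without non-overload library 1. Cyp1a1, the related enzyme that is the textbook target of the receptor, had 0 counts in overload and 16 in non-overload, so that it was at least 4.38-fold lower when the overload group is set at 3 counts, and it did not pass (adjusted p = 0.0654 by edgeR).

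The repressor of the receptor, Ahrr, was at 0.115, 0.312 and 0.234 CPM in overload libraries, against 5.27, 0.67 and 1.16 CPM in non-overload libraries (log2 fold change -3.41, SE 0.73, adjusted p = 0.0202). Tiparp, whose product ADP-ribosylates the receptor and curbs it, was at 31.5, 28.6 and 29.2 CPM in overload libraries, against 39.9, 39.9 and 39.2 CPM in non-overload libraries (log2 fold change -0.41, SE 0.099, adjusted p = 0.0338). In both genes the groups did not overlap. Ahrr was highest in non-overload library 1, whereas Tiparp was level among the non-overload libraries. Of 12 tested genes of this pathway, 0 rose and 3 fell, where 0.324% of all genes tested fell. The median log2 fold change of the 12 was -0.47 beside -0.02 over all genes. The receptor gene Ahr itself (log2 fold change -0.62, adjusted p = 0.269) and the quinone reductase Nqo1 (log2 fold change -0.31, adjusted p = 0.282) did not pass in edgeR. Without non-overload library 1 or without overload library 2, Cyp1b1 was the one gene of the 3 that passed (Ahrr at -2.03 and -3.72 with adjusted p = 0.24 and 0.157), and Tiparp passed in 1 of the 6 fits with a library left out, the one without overload library 1 (adjusted p up to 0.327). Nqo1 was at 0.03 without non-overload library 1.

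The promoters of Cyp1b1 and Ahrr are shown because the receptor binds DNA at the letters GCGTG. The windows run from 250 bases before to 50 bases after the gene start, in RefSeq's GRCr8 build of the rat genome, and capitals mark GCGTG or its reverse complement CACGC. The authors' files used another build, so these positions are RefSeq's. The first window is chr6:21094315-21094614 on the + strand and the second chr1:30821969-30822268 on the + strand.
Cyp1b1: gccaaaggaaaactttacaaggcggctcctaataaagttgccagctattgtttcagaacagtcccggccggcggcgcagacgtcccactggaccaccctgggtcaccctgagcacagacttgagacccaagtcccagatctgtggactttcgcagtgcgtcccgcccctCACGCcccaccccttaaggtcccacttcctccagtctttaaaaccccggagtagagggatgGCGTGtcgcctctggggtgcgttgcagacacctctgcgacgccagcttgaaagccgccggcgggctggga
Ahrr: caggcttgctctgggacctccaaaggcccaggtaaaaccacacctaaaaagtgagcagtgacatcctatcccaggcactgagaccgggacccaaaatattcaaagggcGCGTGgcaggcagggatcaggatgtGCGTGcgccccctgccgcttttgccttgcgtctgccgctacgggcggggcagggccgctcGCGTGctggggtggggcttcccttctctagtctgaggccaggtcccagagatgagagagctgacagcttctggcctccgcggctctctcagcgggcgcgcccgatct
The letters stand at 2 places in the window of Cyp1b1 and at 3 in that of Ahrr. They were found on either strand in 31.1% of 27457 promoters, in 7 of the 10 pathway members with a promoter and in all 3 members that fell. A match describes the letters and is not a binding site.

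Several genes of class II antigen presentation, by which macrophages show peptides to helper T cells, fell in overload. Of 14 tested, 0 rose and 5 fell, where 0.324% of all genes tested fell. The median log2 fold change of the 14 was -0.44. Cd74, the invariant chain that guards the class II groove, was at 62.1, 73.99 and 66.9 CPM in overload libraries, against 106, 109.6 and 112 CPM in non-overload libraries (log2 fold change -0.69, SE 0.12, adjusted p = 0.00507 by edgeR). RT1.Bb, a class II beta chain, was at 15.95, 20.5 and 17.3 CPM in overload libraries, against 29.9, 31.3 and 32.2 CPM in non-overload libraries (log2 fold change -0.80, SE 0.14, adjusted p = 0.00674). Each overload library lay well below each non-overload library in both genes. RT1.Da, a class II alpha chain, was at 23.03, 26.3 and 24.6 CPM in overload libraries, against 40.7, 39.99 and 39.9 CPM in non-overload libraries (log2 fold change -0.71, SE 0.14, adjusted p = 0.0101). Ciita encodes the master activator of class II transcription. It was at 1.19, 1.11 and 1.60 CPM in overload libraries, against 2.09, 2.23 and 2.44 CPM in non-overload libraries (log2 fold change -0.79, SE 0.19, adjusted p = 0.0392). RT1.Db1, a beta chain, also fell (-0.69, adjusted p = 0.04). RT1.Ba (-0.54, adjusted p = 0.0594) and the co-stimulatory Cd86 (0.02, adjusted p = 0.932) did not pass. RT1 genes have near-identical copies, between which estimated counts divide reads by a model, so their single values are uncertain. Cd74 and RT1.Bb passed in all 6 fits with a library left out, whereas without overload library 2 the others did not (adjusted p of the list's calls up to 0.392), nor did they without non-overload library 1 (up to 0.125). RT1.Db1 passed in none of those 6 fits, and Ciita not without non-overload library 2 or 3. Of the 17 class I antigen processing genes tested, 0 were called, where 1.59% of all genes tested were, and their median was 0.01.

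The promoters of Cd74 and RT1.Bb are shown because class II promoters are known to carry a Y box with the letters CCAAT. Capitals mark CCAAT or its reverse complement ATTGG in the windows chr18:56526956-56527255 on the + strand and chr20:4604069-4604368 on the - strand (RefSeq, GRCr8).
Cd74: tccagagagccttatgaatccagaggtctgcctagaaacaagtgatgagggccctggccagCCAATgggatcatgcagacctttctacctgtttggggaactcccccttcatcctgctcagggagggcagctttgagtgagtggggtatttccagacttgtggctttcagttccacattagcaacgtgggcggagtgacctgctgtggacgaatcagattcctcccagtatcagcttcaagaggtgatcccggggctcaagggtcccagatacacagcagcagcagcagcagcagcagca
RT1.Bb: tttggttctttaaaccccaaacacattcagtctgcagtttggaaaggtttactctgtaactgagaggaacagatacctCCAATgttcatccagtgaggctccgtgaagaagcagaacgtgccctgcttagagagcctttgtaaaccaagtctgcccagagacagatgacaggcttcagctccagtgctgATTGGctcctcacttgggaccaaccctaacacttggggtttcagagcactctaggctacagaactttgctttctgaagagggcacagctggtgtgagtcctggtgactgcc
These letters are common, in 37.7% of all promoters of this length. They were in 8 of the 11 members of the list with a promoter and in all 4 members with a promoter that fell.

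Single genes of complement and of pattern recognition fell. C1qb and C1qc encode chains of C1q, which starts the classical complement pathway. C1qb was at 4.11, 2.68 and 2.80 CPM in overload libraries, against 7.29, 6.59 and 6.77 CPM in non-overload libraries (log2 fold change -1.10, SE 0.19, adjusted p = 0.00402 by edgeR). C1qc was at 3.04, 2.23 and 3.58 CPM in overload libraries, against 7.57, 6.34 and 5.37 CPM in non-overload libraries (log2 fold change -1.12, SE 0.20, adjusted p = 0.00507). In both chains the lowest non-overload library lay above the highest overload library. The third chain, C1qa, had a log2 fold change of -0.54 (adjusted p = 0.109) and did not pass. Cfp, which encodes properdin, the stabiliser of the alternative pathway, was at 57.9, 76.8 and 62.9 CPM in overload libraries, against 91.4, 95.1 and 94.3 CPM in non-overload libraries (log2 fold change -0.51, SE 0.10, adjusted p = 0.0155). Of 20 complement genes tested 0 rose and 3 fell, where 0.324% of all genes tested fell. The list's median was -0.02, the same as over all genes, or -0.25 without overload library 2. Without overload library 2, the C1q chains missed the threshold (C1qb -0.99, adjusted p = 0.0564, and C1qc -0.96, adjusted p = 0.0915) and Cfp passed, whereas without non-overload library 1, C1qb passed and the other 2 did not (adjusted p up to 0.0677). Cfp also missed it without non-overload library 2 (adjusted p = 0.0511). The C1q genes are also markers of monocytes and recruited macrophages, whose 14 listed genes summed to 815, 1012 and 853 CPM in overload libraries, against 876, 861 and 896 CPM in non-overload libraries. Of these 14 genes, 11 had a negative log2 fold change, 7 were lower without overlap between the groups, and the median was -0.86. The part of such cells in the C1q values was not tested.

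Tlr5, the receptor for bacterial flagellin, was at 6.19, 4.06 and 4.98 CPM in overload libraries, against 8.55, 9.63 and 10.2 CPM in non-overload libraries (log2 fold change -0.89, SE 0.16, adjusted p = 0.00724 by edgeR). It was the 1 gene of 18 Toll-like receptors and adaptors that fell, and 0 rose, where 0.324% of all genes tested fell. Alox5, which encodes 5-lipoxygenase, the first enzyme of leukotriene synthesis, was at 5.77, 5.53 and 4.40 CPM in overload libraries, against 9.42, 10.2 and 7.92 CPM in non-overload libraries (log2 fold change -0.81, SE 0.13, adjusted p = 0.00265). Neither gene had overlapping groups. Among 15 eicosanoid genes Alox5 was the 1 that passed, with Ptgs1 at -0.68 (adjusted p = 0.108) and Ptgs2 at -0.88 (adjusted p = 0.118). Without the libraries of the series with Col3a1 above 5 CPM, Ptgs1 passed (-0.378, adjusted p = 0.0143 by edgeR). In that fit Alox5 did not pass (-0.792, adjusted p = 0.0706). Without overload library 2 Tlr5 did not pass (-0.76, adjusted p = 0.119), while Alox5 did (-0.85, adjusted p = 0.0161).

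The scavenger receptors and uptake genes moved in both directions: of 18 tested, 2 rose and 2 fell. Of all genes tested, 1.26% rose and 0.324% fell. Stab1, an endocytic scavenger receptor, was at 2.27, 3.43 and 3.11 CPM in overload libraries, against 7.40, 8.13 and 10.5 CPM in non-overload libraries (log2 fold change -1.56, SE 0.30, adjusted p = 0.0101 by edgeR). Scarb1, the receptor for high-density lipoprotein, was at 299, 458 and 361 CPM in overload libraries, against 217, 256 and 272 CPM in non-overload libraries (log2 fold change 0.58, SE 0.14, adjusted p = 0.0399). Both groups were apart in each gene, and overload library 2 was the highest for Scarb1. Axl, a receptor for dying cells, fell by less (-0.22, adjusted p = 0.0155), and Cd68, a lysosomal membrane protein of macrophages, rose (0.39, adjusted p = 0.0414). Without overload library 2 none of the 4 passed (adjusted p 0.0564 to 0.539), and without non-overload library 1 or 2 only Stab1 did. Scarb1 also missed the threshold without overload library 3. Csf2rb, a receptor subunit for the growth factor GM-CSF on which alveolar macrophages depend, was at 34.98, 36.8 and 38.6 CPM in overload libraries, against 55.5, 55.5 and 51.99 CPM in non-overload libraries (log2 fold change -0.56, SE 0.13, adjusted p = 0.0307). It did not pass without overload library 2 (adjusted p = 0.248), non-overload library 1 (0.15) or non-overload library 2 (0.0741).

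Some genes of lipid handling rose in overload. Of 29 genes of fatty acid uptake, storage and desaturation, 6 rose and 0 fell (median 0.12). Of 22 lipid-associated macrophage genes 5 rose and 0 fell (median 0.34), where 1.26% of all genes tested rose. Without overload library 2 these medians were 0.05 and 0.22, with 1 and 0 rises, and with the epithelial marker mean in the fit 0.06 and 0.19, with 5 and 2 rises. Mgll, which encodes monoacylglycerol lipase, was at 179, 241 and 198 CPM in overload libraries, against 115, 133 and 125 CPM in non-overload libraries (log2 fold change 0.73, SE 0.11, adjusted p = 0.00218 by edgeR). Fabp5, a fatty acid carrier, was at 739, 868 and 760.4 CPM in overload libraries, against 572, 573 and 554 CPM in non-overload libraries (log2 fold change 0.48, SE 0.082, adjusted p = 0.00443). All overload libraries lay above all non-overload libraries in both genes, and library 2 was the highest of them. Dgat2, the last enzyme of triglyceride synthesis, was at 155, 201 and 173 CPM in overload libraries, against 126, 137 and 130.1 CPM in non-overload libraries (log2 fold change 0.43, SE 0.087, adjusted p = 0.015). Srebf1, a transcription factor of lipid synthesis (0.40), the desaturase Scd2 (0.38) and the lipid droplet protein Plin2 (0.46) also rose, with adjusted p = 0.0117, 0.0167 and 0.0402. Of 31 sterol genes 2 rose, Soat1, which esterifies cholesterol (0.29, adjusted p = 0.0338), and Npc1, the lysosomal cholesterol exporter (0.35, adjusted p = 0.04). Without overload library 2, Mgll passed (0.60, adjusted p = 0.0161) and none of the others named here did (adjusted p up to 0.498). Without non-overload library 1 the genes of these lists that passed were Mgll, Fabp5 and Scd2, and without non-overload library 2 Plin2, Soat1 and Npc1 missed the threshold (adjusted p = 0.0905, 0.0586 and 0.072).

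Nearly all lysosomal genes lay slightly higher in overload, and a few passed the test. This was not particular to them: of 16 alveolar macrophage markers tested, 14 had a positive log2 fold change (median 0.23). Of 36 cathepsins, hydrolases and membrane proteins, 6 rose and 0 fell, 34 had a positive log2 fold change, and the median was 0.27. Over all genes tested, 1.26% rose. Ctsb, a cysteine protease, was at 7573, 10053 and 8121 CPM in overload libraries, against 6034, 6612 and 6724 CPM in non-overload libraries (log2 fold change 0.41, SE 0.091, adjusted p = 0.0229 by edgeR). Ctsd, an aspartic protease, was at 11031, 13843 and 11872 CPM in overload libraries, against 9284, 10071 and 9556 CPM in non-overload libraries (log2 fold change 0.35, SE 0.082, adjusted p = 0.0338). Overload library 2 was the highest in both and library 1 the lowest of the overload group. Also among those that rose were Gaa, an acid glucosidase (0.35, adjusted p = 0.0338), Lamp1, a lysosomal membrane protein (0.28, adjusted p = 0.0494), and Npc1. Of 25 genes of the proton pump and the TFEB family, which acidify lysosomes and set their number, 2 rose and 0 fell, 24 were positive, and the median was 0.25. Atp6v0d2, a proton pump subunit, was at 239.8, 321 and 235 CPM in overload libraries, against 180.4, 198 and 204 CPM in non-overload libraries (log2 fold change 0.45, SE 0.11, adjusted p = 0.0392). Of 25 autophagy genes 4 rose and 0 fell (median 0.10), among them Optn, a receptor that brings cargo to autophagosomes, at 755, 997 and 821 CPM in overload libraries, against 541, 641 and 650.3 CPM in non-overload libraries (log2 fold change 0.49, SE 0.11, adjusted p = 0.0254).

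None of the 12 calls on these 3 lists passed without non-overload library 1, without non-overload library 2 or without overload library 2. The medians over all tested members stayed positive without overload library 2, at 0.15 for the lysosomal and 0.17 for the proton pump list. That of the alveolar macrophage markers was 0.135 in the same fit. With the epithelial marker mean in the fit 0 of the lysosomal genes rose and 1 fell, with a list median of 0.18. The summed macrophage marker level given above was highest in overload library 2, where these genes were highest, and its part in them was not tested.

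The promoters of Gaa and Ctsd are shown because factors of the TFEB family bind the letters CACGTG. Capitals mark them in chr10:105028105-105028404 on the + strand and chr1:206968772-206969071 on the - strand (RefSeq, GRCr8).
Gaa: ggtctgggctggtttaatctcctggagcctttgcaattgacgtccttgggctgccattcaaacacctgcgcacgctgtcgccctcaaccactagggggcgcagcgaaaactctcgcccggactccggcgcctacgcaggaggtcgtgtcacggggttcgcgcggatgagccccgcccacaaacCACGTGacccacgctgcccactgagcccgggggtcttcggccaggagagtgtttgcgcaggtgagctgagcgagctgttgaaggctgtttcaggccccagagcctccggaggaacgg
Ctsd: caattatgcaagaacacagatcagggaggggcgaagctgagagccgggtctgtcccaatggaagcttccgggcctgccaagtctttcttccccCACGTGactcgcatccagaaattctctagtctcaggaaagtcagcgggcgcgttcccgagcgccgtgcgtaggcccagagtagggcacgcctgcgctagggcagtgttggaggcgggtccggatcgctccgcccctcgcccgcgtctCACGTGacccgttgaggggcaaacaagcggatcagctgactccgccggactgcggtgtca
The letters, the same on both strands, were found in 6.65% of all promoters, in 8 of 29 lysosomal genes with a promoter, and in 3 of the 4 with a promoter that rose, the third being Lamp1.

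**Figure D3:**
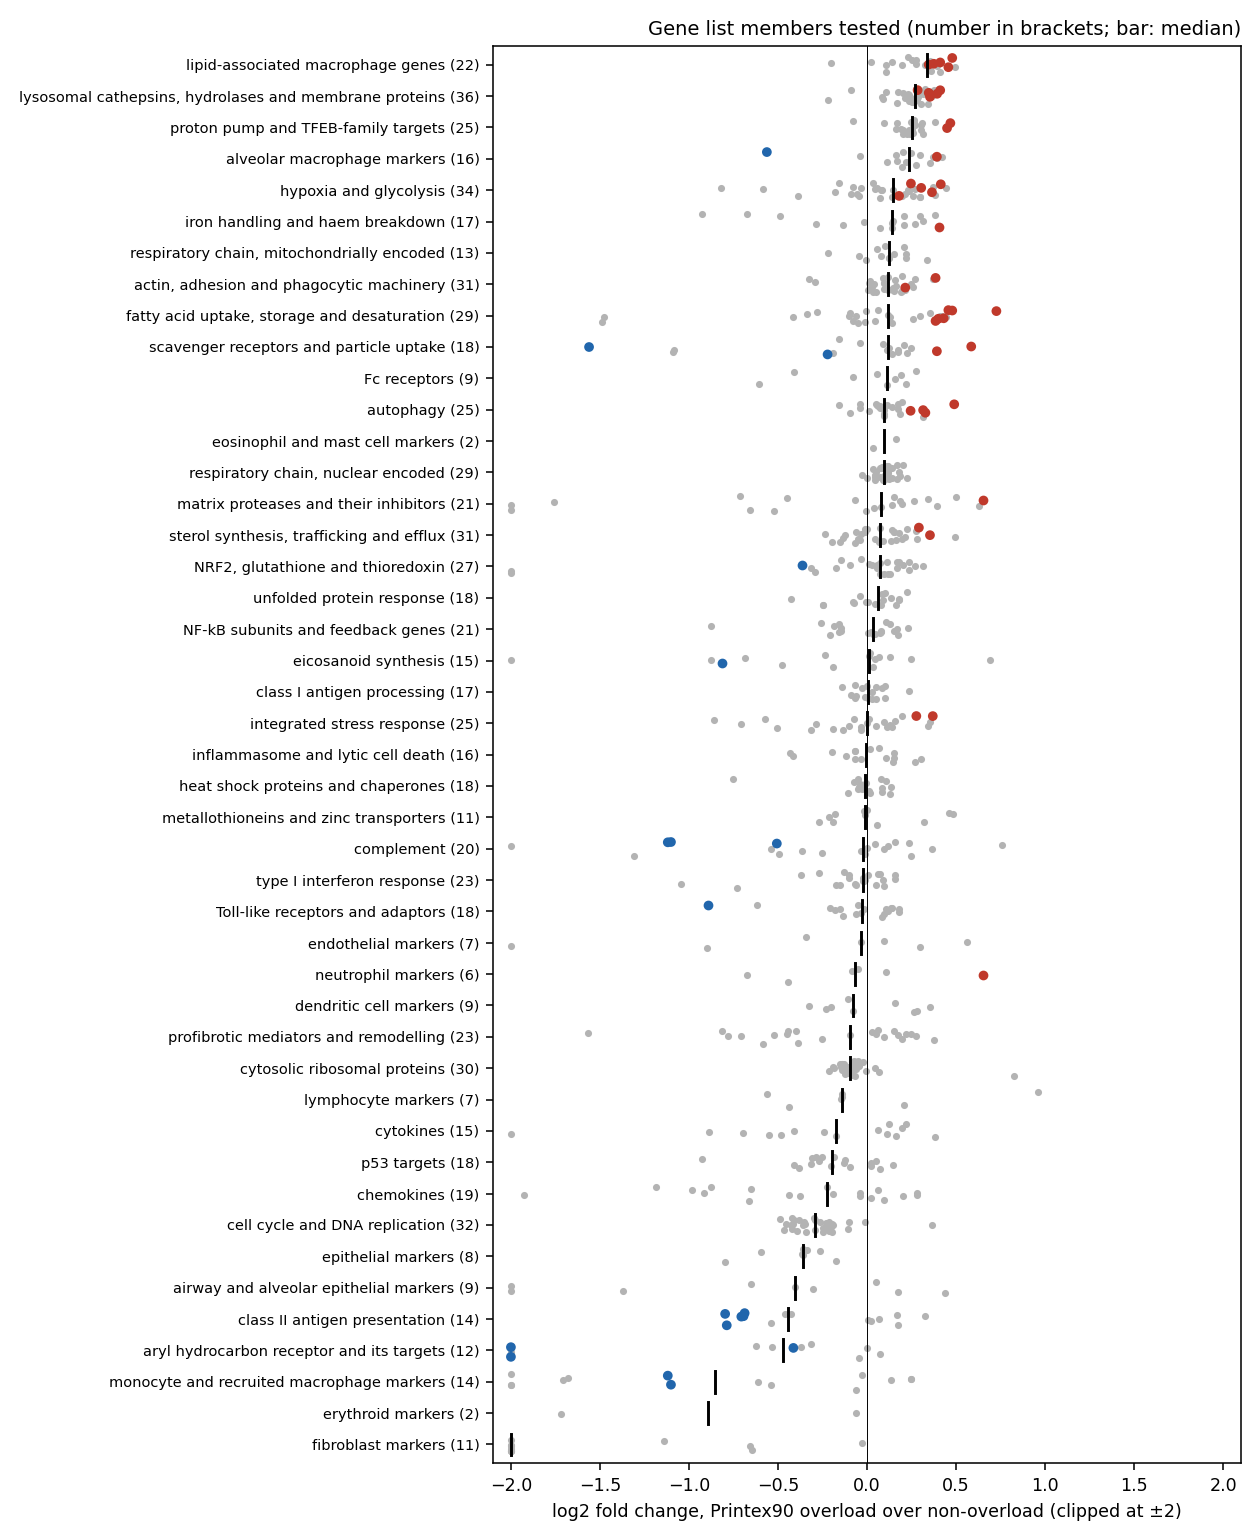
Each point is a tested member of a gene list, with its log2 fold change of overload over non-overload on the x axis (clipped at -2 and 2) and the lists on the y axis in order of their median (black bar). Red and blue points passed the test, and the lists with the highest medians are the lipid-associated, lysosomal and proton pump genes (0.34, 0.27 and 0.25).

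Glycolysis genes rose in part. Of 34 genes of hypoxia and glycolysis 5 rose and 0 fell (median 0.14), where 1.26% of all genes tested rose. Slc2a1, the glucose transporter, was at 292, 309 and 290.1 CPM in overload libraries, against 236, 249 and 237 CPM in non-overload libraries (log2 fold change 0.30, SE 0.071, adjusted p = 0.0307 by edgeR). Pfkp, a phosphofructokinase, was at 120.3, 142 and 116 CPM in overload libraries, against 97.8, 98.7 and 96.9 CPM in non-overload libraries (log2 fold change 0.36, SE 0.071, adjusted p = 0.0101). Groups were apart in both. The others were Pfkfb3, Eno2 and Aldoa, at 0.18 to 0.41. Hif1a, which encodes the hypoxia factor, was at 0.04 (adjusted p = 0.769). None of the 5 passed without non-overload library 1 (adjusted p 0.0609 to 0.22) or overload library 2 (0.222 to 0.496), and 1 did without non-overload library 2, Pfkp. Among the larger rises by the rule used here were Tspan10 (0.75, adjusted p = 0.0238), a tetraspanin, and Mgll. Mmp8, a collagenase known from neutrophils, was at 35.7, 54.3 and 44.5 CPM in overload libraries, against 27.5, 26.9 and 31.4 CPM in non-overload libraries (log2 fold change 0.65, SE 0.15, adjusted p = 0.0238). Of the 12 neutrophil markers Mpo, Elane and Retnlg were at 0 in the 6 libraries, while S100a8 was at 4.07, 7.05 and 3.58 CPM in overload libraries, against 4.57, 5.03 and 4.02 CPM in non-overload libraries, and was highest in overload library 2, as Mmp8 was. The 11 markers other than Mmp8 summed to 13.8, 16.01 and 14.1 CPM in overload libraries, against 17.1, 17.8 and 14.96 CPM in non-overload libraries, and the part of neutrophils in Mmp8 was not tested. Tspan10 and Mmp8 passed neither without non-overload library 1 or 2 nor without overload library 2 (adjusted p up to 0.39).

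Stress and inflammation genes gave few calls, as did all genes tested (1.59%). Gstp1, a glutathione transferase, fell (-0.37, adjusted p = 0.0161 by edgeR) and was the 1 of 27 NRF2 and antioxidant genes that passed, but not without non-overload library 1 (-0.24, adjusted p = 0.176) or overload library 2 (-0.30, adjusted p = 0.26). Hmox1, the haem oxygenase of the same pathway, was at 0.27 (adjusted p = 0.102). Psat1, of serine synthesis, and Ppp1r15a, which ends the block on translation, were the 2 of 25 integrated stress response genes that rose (0.37 and 0.28), and neither passed without non-overload library 1 or overload library 2, nor Ppp1r15a without non-overload library 2 or 3. Ftl1, ferritin light chain, rose (0.40, adjusted p = 0.0414), with adjusted p = 0.508 without overload library 2, 0.221 without non-overload library 1 and 0.0849 without non-overload library 2. Ferritins too have near-identical copies. Cytokines (15 tested), chemokines (19), NF-kB genes (21), inflammasome genes (16), interferon response genes (23) and p53 targets (18) had 0 calls. On lists of this size 0 calls is near the share of 1.59% over all genes. Of the p53 targets, 10 were lower and 1 higher without overlap between the groups, beside 11.7% and 12% of all genes tested. Il1b, which encodes interleukin 1 beta, was at 12.3, 21.9 and 24.3 CPM in overload libraries, against 29.3, 33.5 and 45.7 CPM in non-overload libraries (log2 fold change -0.89, SE 0.25, adjusted p = 0.0588). Its groups did not overlap, but it missed the threshold. Cxcl6, a chemokine for neutrophils, was at -0.92 (adjusted p = 0.132) with overlapping groups.

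The same genes were set along the 3 levels of exposure. Cd74 was at 141 ± 14.5 CPM in control, 109 ± 3.18 CPM in non-overload and 67.7 ± 5.97 CPM in overload libraries (SD, n = 3 each), and Tlr5 at 16.2 ± 0.629, 9.46 ± 0.841 and 5.08 ± 1.07 CPM in the same order. Both stepped down at each level. Mgll was at 116 ± 8.15 CPM in control, 124 ± 8.71 CPM in non-overload and 206 ± 31.8 CPM in overload libraries, and Ctsb at 6303 ± 557, 6457 ± 370.1 and 8582 ± 1303 CPM. In these the first step was small: the log2 fold change of non-overload over control was 0.10 for Mgll and 0.03 for Ctsb, neither past the test. For the lysosomal list the median was -0.00142 in the first step and 0.27 in the second. The steps share the non-overload libraries, so they are not independent. A test of the second step minus the first found 0 genes in edgeR (1095 at an unadjusted p under 0.05, and 11 in DESeq2), with 1 gene in the fit without non-overload library 2 and 0 in the other fits that left out 1 library. Most of the 11 in DESeq2 had extreme fitted values, such as -45.6 for Cox4i2 and 47.2 for LOC100911516.1 (log2 scale), while Cyp1b1 was at -8.28. In edgeR, Pcdhga5, LOC108349606, Crabp1 and Cyp1b1 had the smallest p. For Cyp1b1 the second step minus the first was -8.18, beside -9.12 for the second step alone. Its fitted first step was thus negative too, with control above non-overload. Crabp1, a retinoic acid binding protein, was at 16.9 CPM in non-overload library 1 and near 0 in the other Printex90 libraries.

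**Figure D4:**
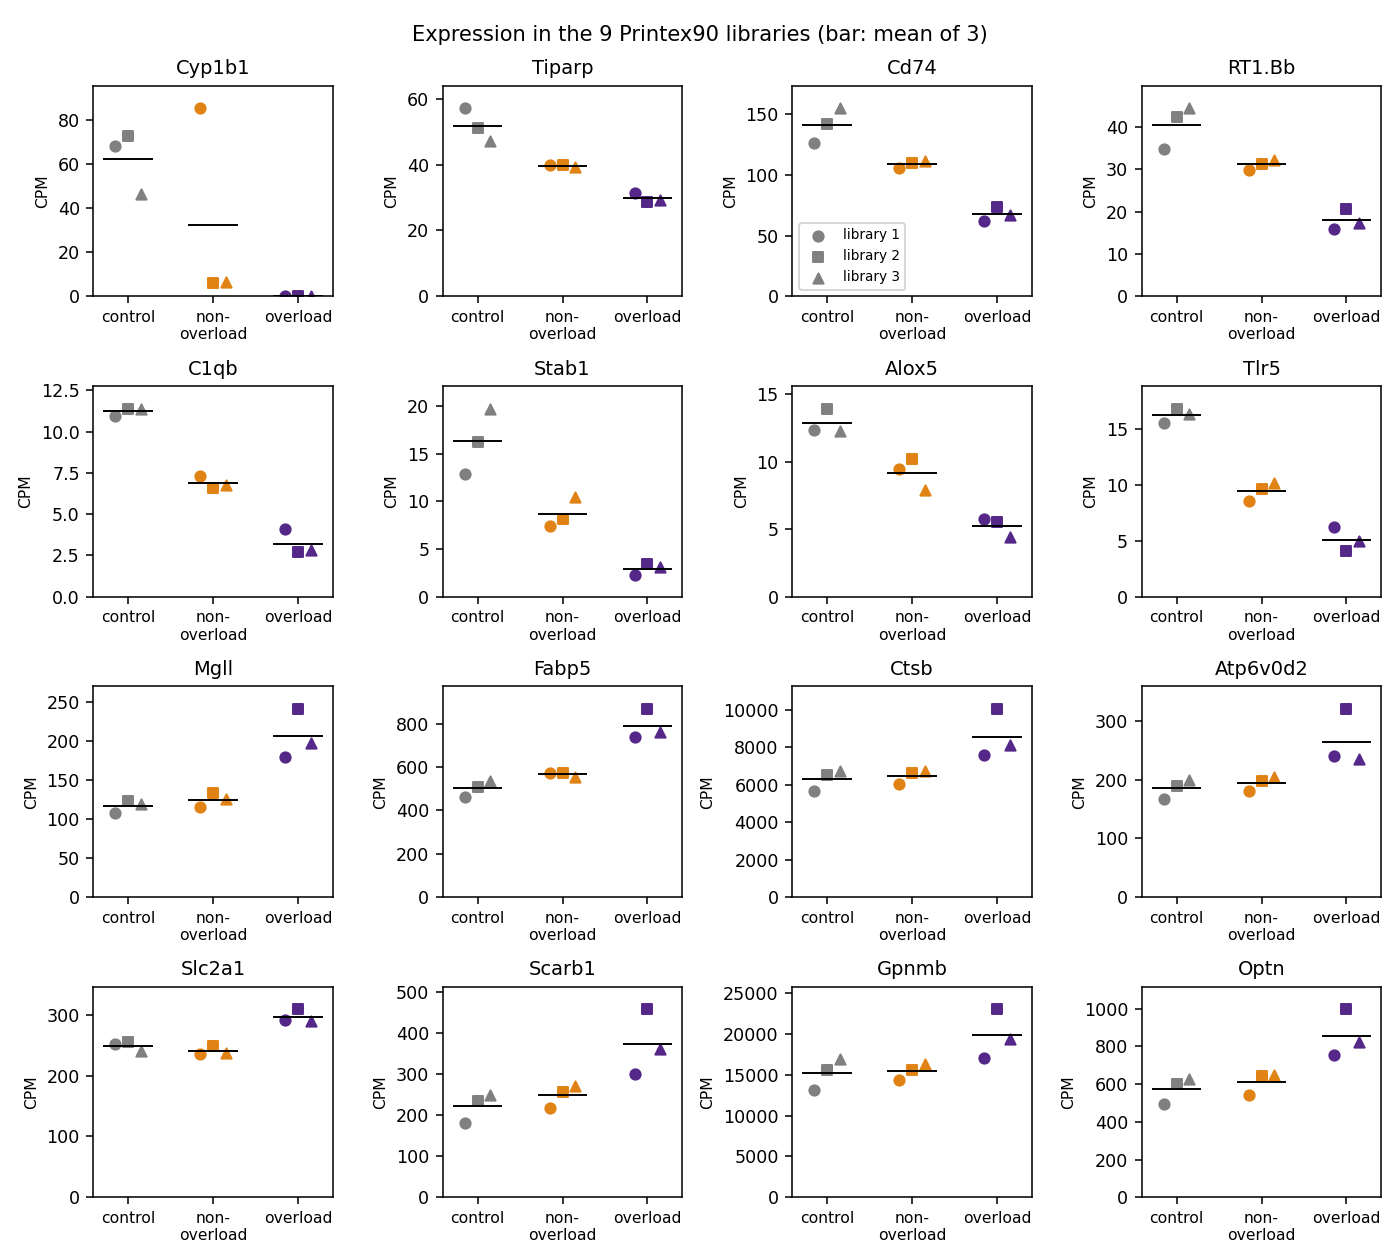
Expression in CPM (y axis, from 0) of 16 genes in the 9 Printex90 libraries by loading (x axis), with a marker shape for each library number and a bar at the mean of 3. Cd74, C1qb, Stab1, Alox5 and Tlr5 step down from control to overload, Mgll, Fabp5, Ctsb and Optn step up at overload, and overload library 2 is the highest of its group in those 4.

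Whether the second loading acted alike for other particles was asked by subtracting the same contrast of the titanium dioxides. Against the mean of the 3, 0 genes differed in edgeR (2176 at an unadjusted p under 0.05, and 72 in DESeq2). Cyp1b1 came nearest, with a difference of -9.17 on the log2 scale (adjusted p = 0.0522), and it passed in 6 of the 24 fits that left out 1 library of the 4 particles, among them those without Printex90 non-overload library 2 or 3 (adjusted p = 0.00601 and 0.00809). Tiparp passed in 1 of them, without Bayertitan overload library 2 (-0.576, adjusted p = 0.0354). The log2 fold change of Cyp1b1 (overload over non-overload) was -9.12 for Printex90, against 0.42, 0.74 and -1.002 for G1-1, G3-1 and Bayertitan. Fibroblast transcripts were present in 9 of the 18 titanium dioxide libraries, with Col3a1 at 19.6 to 656 CPM. In G1-1, Col3a1 was at 218, 0 and 0 CPM in overload libraries, against 0, 19.6 and 0 CPM in non-overload libraries. In G3-1 it was at 0, 382 and 303 CPM in overload libraries, against 135, 0 and 194 CPM in non-overload libraries. In Bayertitan it was at 175, 0 and 0 CPM in overload libraries, against 0, 656 and 196 CPM in non-overload libraries. The part of fibroblasts in the Cyp1b1 values was not tested. Without all libraries with Col3a1 above 5 CPM the difference in Cyp1b1 was -6.58 (adjusted p = 0.255), and with the fibroblast marker mean in the fit it was -7.96 (adjusted p = 0.00471 by edgeR). Tiparp was at -0.41 for Printex90, against 0.42, 0.06 and -0.11 for the 3 titanium dioxides in the same order. For both genes the sign was opposite to that of G1-1. Cd74 was at -0.69 for Printex90, against -0.78, -0.44 and -0.19, and Mgll at 0.73, against 0.30, 0.01 and 0.15. No difference from the titanium dioxides passed for these (adjusted p = 0.42 and 0.211), which does not show that the particles act alike. Against single titanium dioxides 14 genes differed from G1-1 (0.0966% of those tested), 0 from G3-1 and 0 from Bayertitan in edgeR (2843 and 590 at an unadjusted p under 0.05). The count against G1-1 was 639 without Printex90 overload library 1 and 0 to 5 without any other single Printex90 library, with 0 without overload library 2. It was 0 to 24 without a single G1-1 library, with 0 without G1-1 overload library 1 or 3 or non-overload library 1, 2 without non-overload library 3, 8 without non-overload library 2 and 24 without overload library 2.

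**Figure D5:**
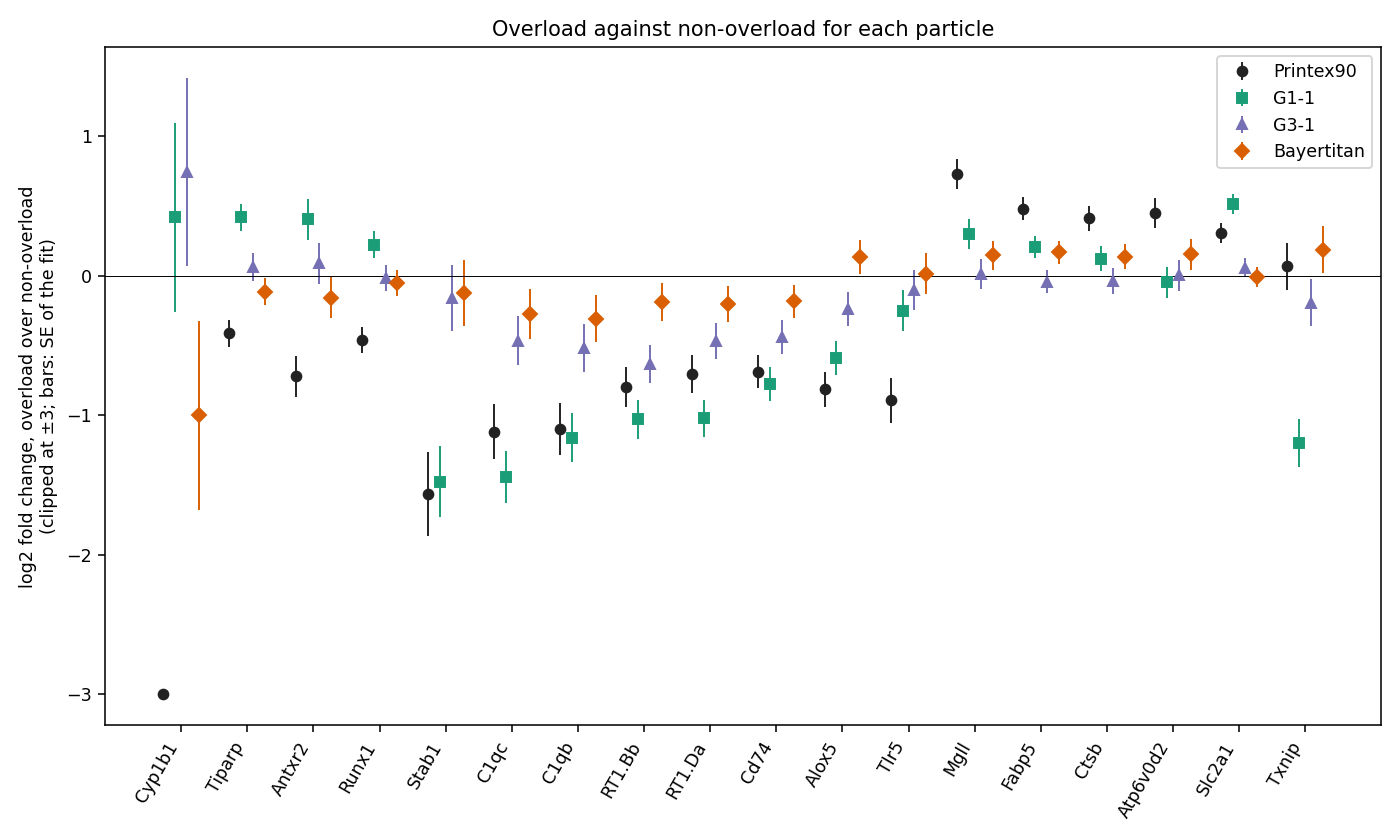
The log2 fold change of overload over non-overload (y axis, clipped at -3 and 3, bars showing the SE of the fit) for 18 genes (x axis) with Printex90 first and then the titanium dioxides. Cyp1b1 lies below -3 for Printex90 and near 0 or at -1 for the others, while Cd74 and the RT1 genes are negative for all 4 particles.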

How the data were processed

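The submitters' processing notes name Salmon, FastQC, MultiQC and the rat build Rnor_6.0; versions, annotation and the step from transcripts to genes are not given in the sources used here. The values deposited by the authors are unscaled estimated counts for 23487 gene symbols in 36 libraries, and 47.7% of them have a fractional part. Per the labels' protocols, each library started with 150 ng of RNA and was depleted of ribosomal RNA. Estimated counts of near-identical, overlapping or antisense genes are uncertain.

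Counts were rounded, filtered with edgeR's filterByExpr (14498 genes left), scaled by TMM (factors 0.934 to 1.05 in the 6 libraries) and fitted in 1 quasi-likelihood model with 12 group means and 24 residual degrees of freedom (edgeR 4.0.16, limma 3.58.1, DESeq2 1.42.0, R 4.3.3). The Benjamini-Hochberg adjustment ran over the 14498 genes (threshold 0.05); SE is that of the fit. CPM uses TMM library sizes, and marker means use log2(CPM + 0.5). Library totals over the series ran from 22274320 to 37131475. No 2 libraries of a Printex90 group were duplicates (chi-square per gene 7.05 to 44.6 over 9 pairs). In simulated data for this comparison with 14498 genes, 42 of 100 genes changed by 0.35 on the log2 scale and 87 of 100 changed by 0.7 were recovered. The changed genes were drawn from those with a mean of at least 5 CPM, so these shares do not cover lower genes. There were 8 false calls. The simulation drew each gene independently around a common mean, with no library-wide shift, so these shares need not hold for the real libraries.

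The comparison and the 45 gene lists were chosen with earlier results of these data known. Named genes are the 12 largest called changes each way (higher group mean of 5 CPM or more, groups not overlapping), up to 4 members of each list, the 4 smallest p of each difference, and a set of fixed genes; not all are given in the text. Alternatives are other scalings, filters, tools and sets of libraries, marker means as covariates, a replicate block, and leaving out libraries. Promoter sequences are RefSeq's (GRCr8).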

Additional observations from a re-analysis of the deposited data

Results flagged for a closer look

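In 14 genes the change between the loadings differed between Printex90 and the titanium dioxide G1-1 in edgeR's test of the difference itself (Printex90 minus G1-1, log2 scale, adjusted p 0.0146 to 0.0494, n = 3 libraries per group in 4 groups). This comparison with a single particle was chosen after the data had been seen. Tiparp, an ADP-ribosyltransferase that limits the aryl hydrocarbon receptor, differed by -0.831, with -0.41 for Printex90 and 0.42 for G1-1. Cyp1b1, an enzyme induced by that receptor, differed by -9.54, with 4 counts in overload and 2827 in non-overload for Printex90, against 6456 and 4927 for G1-1. The anthrax toxin receptor gene Antxr2 differed by -1.12, the transcription factor Runx1 by -0.685 and the RNA-degrading Zc3h12a by -0.419, all with a negative fitted value for Printex90 and a positive one for G1-1. Txnip, which encodes a thioredoxin-binding protein, differed by 1.27, with 0.07 for Printex90 and -1.20 for G1-1. The other 8 differences were positive. They were 0.46 for the tubulin cofactor Tbca, 0.479 for Rbis, 0.675 for Pkib, 0.587 for Gmfg, 0.497 for Selenos, 0.628 for Serf1, 0.444 for Vti1b and 0.588 for Polr2k. None of the 14 passed without Printex90 overload library 2, G1-1 overload library 1 or 3, or G1-1 non-overload library 1. In each of the 12 fits that left out 1 library of these particles, 14 of 14 kept their sign. Those fits reuse the libraries in which the 14 were picked, so the kept signs are no separate support. In the fit without libraries with Col3a1 above 5 CPM, the Cyp1b1 difference was -6.61 (adjusted p = 0.255), and G1-1 overload library 1 had Col3a1 at 218 CPM.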

How the results depend on the processing

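The count of 230 genes for overload against non-overload was 311 with DESeq2's size factors and 166 with upper-quartile factors in edgeR, 166 with limma voom, 145 with no filter on low counts, 390 with a stricter filter and 885 with DESeq2. It was 66 and 135 with the epithelial and the fibroblast marker mean as a covariate, 13 without libraries with Col3a1 above 5 CPM, 0 in the 9 Printex90 libraries alone (2487 at an unadjusted p under 0.05) and in the 6 compared libraries alone (2010), and 0 without non-overload library 1 and overload library 2 together (677; an alternative added after the data were seen). Leaving out 1 library gave 11 to 1078. The cause of these shifts was not tested. Of the 59 named genes that passed, 6 did without overload library 2 and 10 without non-overload library 1.

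The difference from the mean of the titanium dioxides had 0 genes, but 1 with no filter and 1 with the fibroblast covariate (Cyp1b1 in both), 72 with DESeq2 and 0 to 2 with 1 library left out. The difference between steps had 0 genes, but 11 with DESeq2 (most with extreme fitted values), 1 without libraries with Col3a1 above 5 CPM and 0 to 1 with 1 library left out. The 14 genes against G1-1 became 23 and 31 with DESeq2's and upper-quartile factors, 8 with no filter, 37 with the stricter filter, 407 with DESeq2, 5 with limma voom, 4 and 12 with the epithelial and fibroblast covariates, 0 without libraries with Col3a1 above 5 CPM, and 0 to 639 with 1 Printex90 or 0 to 24 with 1 G1-1 library left out. The cause was not tested.

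With the replicate number within each particle as a block, 500 genes were called for overload against non-overload, 57 against G1-1 and 0 for both other differences. Same-numbered libraries correlated at 0.081, 0.078 and 0.0022 in their deviations from the group means, and differently numbered ones at -0.082 to 0.056. With 3 libraries a group, these values cannot decide whether the numbers pair the samples. The epithelial and fibroblast marker differences were -0.47 and -1.69 with the paired block (exact sign-flip p = 0.5 and 0.25). With 3 pairs, 0.25 is the smallest p possible, so this test cannot decide either difference.

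Among named genes that had not passed, 3 changed direction, and the cause was not tested. Crabp1 was at 1.14 without non-overload library 1 and at -7.55 to 1.14 with 1 library left out, and at 1.08 without non-overload library 1 and overload library 2. Nqo1 was at 0.03 without libraries with Col3a1 above 5 CPM and at -0.459 to 0.026 with 1 library left out. Txnip was at -0.0705 with the epithelial covariate, -0.0677 without non-overload library 1 and overload library 2, and -0.00505 to 0.123 with 1 library left out. The depth of 24013079 to 34752564 counts per library leaves genes under about 1 CPM with few counts, and 3 libraries a group limit the recovery of small changes.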

Other observations

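Genes of the cell cycle and DNA replication lay lower in overload by a small amount without passing. Of 32 tested 0 were called, where 1.59% of all genes tested were. In this list 31 had a negative log2 fold change and the median was -0.29, or -0.16 without non-overload library 1. Cdc20, an activator of mitotic exit, was at -0.49 (adjusted p = 0.252 by edgeR), and the replication helicase gene Mcm7 at -0.42 (adjusted p = 0.239). Of 30 cytosolic ribosomal protein genes 27 were negative (median -0.10), and of 29 nuclear-encoded respiratory chain genes 28 were positive (median 0.09), with 0 calls on either list. Of 31 genes of actin, adhesion and phagocytosis, 29 were positive and 2 rose, Coro1c (0.21, adjusted p = 0.04) and Lcp1 (0.38, adjusted p = 0.0407), both actin-binding proteins. Neither passed without non-overload library 1, non-overload library 2 or overload library 2 (adjusted p up to 0.508).

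Other genes that fell lie outside the lists. Runx1, a transcription factor of blood cells, was at 27.7, 23.4 and 25.5 CPM in overload libraries, against 33.9, 34.8 and 36.8 CPM in non-overload libraries (log2 fold change -0.46, SE 0.095, adjusted p = 0.0161 by edgeR). Antxr2, a receptor for the anthrax toxin, was at 9.46, 8.56 and 10.3 CPM in overload libraries, against 18.3, 14.5 and 13.9 CPM in non-overload libraries (log2 fold change -0.72, SE 0.15, adjusted p = 0.0161). The groups did not overlap in either gene. Parm1, a mucin-like membrane protein, was at 7.77, 1.92 and 5.37 CPM in overload libraries, against 16.96, 12.8 and 12.99 CPM in non-overload libraries (log2 fold change -1.50, SE 0.39, adjusted p = 0.0481), and overload library 2, which had the lowest epithelial markers, was its lowest. Without overload library 2 none of these passed (adjusted p = 0.227, 0.222 and 0.483), nor did they without non-overload library 1 (adjusted p = 0.0664, 0.157 and 0.217). Runx1 and Parm1 also missed the threshold without non-overload library 2, and Parm1 without non-overload library 3 or overload library 3.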
